A study of Mus musculus with 18 samples.

Results

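The effect of the Q175 allele in striatal microglia that lack *Tyrobp* was examined by comparing Q175;Tyrobp-KO mice (5 samples, replicates 5, 11, 12, 13 and 16) with Tyrobp-KO mice (3 samples, replicates 15, 19 and 20), so that both sides carry the same deletion and differ in the Q175 allele. The members are all samples with these 2 genotypes in the labels, 8 of the 18 samples of the series. The other 10 samples, 5 WT and 5 Q175, have *Tyrobp* and were used only beside them. All mice were C57BL/6. Q175 mice were heterozygous for a knock-in that places human huntingtin exon 1 with an expanded CAG repeat in the mouse *Htt* gene, and the *Tyrobp* deletion is constitutive, so each allele is carried by all cells of the mouse and not by microglia alone. By the labels, 2 of the 3 Tyrobp-KO and 2 of the 5 Q175;Tyrobp-KO samples came from females. Of the samples with *Tyrobp*, 1 of the 5 WT and 4 of the 5 Q175 samples did. No age is given in the labels used here. Cells of the striatum were enriched with beads against CD11b, a surface protein that microglia share with other myeloid cells. RNA was amplified with a kit for very small inputs and sequenced without strand information, so reads of overlapping genes on opposite strands cannot be told apart.

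TYROBP (DAP12) is a membrane adaptor with an activation motif that carries signals from receptors such as TREM2 into microglia. Without it, microglia are known to express the disease-associated microglia (DAM) programme only in part. Huntington's disease is caused by the CAG expansion in huntingtin and strikes the medium spiny neurons of the striatum first. The question this comparison addresses is which transcripts of microglia differ with the mutant allele when that adaptor is missing.

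Levels are given as CPM, counts relative to the total of the sample, scaled with edgeR's TMM factors over all 18 samples. *Tyrobp* itself (chromosome 7 of GRCm38, 30413760 to 30417585) checked the labels. It was at 17.1 to 22.3 CPM in the Tyrobp-KO samples and at 9.59 to 15.2 CPM in the Q175;Tyrobp-KO samples, against 198 to 442 CPM in WT and 216 to 388 CPM in Q175 samples. *Htt* (chromosome 5, 34761740 to 34912534) was at 132, 149 and 187 CPM in Tyrobp-KO and at 145, 178, 169, 149 and 148 CPM in Q175;Tyrobp-KO samples 5, 11, 12, 13 and 16, and the groups overlap. Total counts were between 15477847 and 20008167 in Tyrobp-KO and between 15188201 and 29771983 in Q175;Tyrobp-KO samples.

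The 8 samples were not alike in purity. Microglia markers (20 genes) had a geometric mean of 771 to 1255 CPM + 1 in Tyrobp-KO and 722 to 1024 in Q175;Tyrobp-KO samples, and none of them was at 0 in every sample. Tyrobp-KO 20 stood apart on the first principal component, at 94.9 where the other 7 samples lie between -45.5 and 55.4. This sample had 6.12% of its counts on mitochondrially encoded genes, against 0.848% and 1.31% in the other 2 Tyrobp-KO samples and 0.766% to 2.83% in Q175;Tyrobp-KO samples. Its astrocyte marker level was 117 (geometric mean of CPM + 1 over 15 genes), against 23.3 and 43.9 in the other Tyrobp-KO samples. In Q175;Tyrobp-KO samples that level ran from 23.1 to 98.2, highest in sample 5. Values without Tyrobp-KO 20 are given below beside results that this sample moved most. In such bulk samples, fewer cells of a type and less RNA per cell cannot be told apart.

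**Figure D1:**
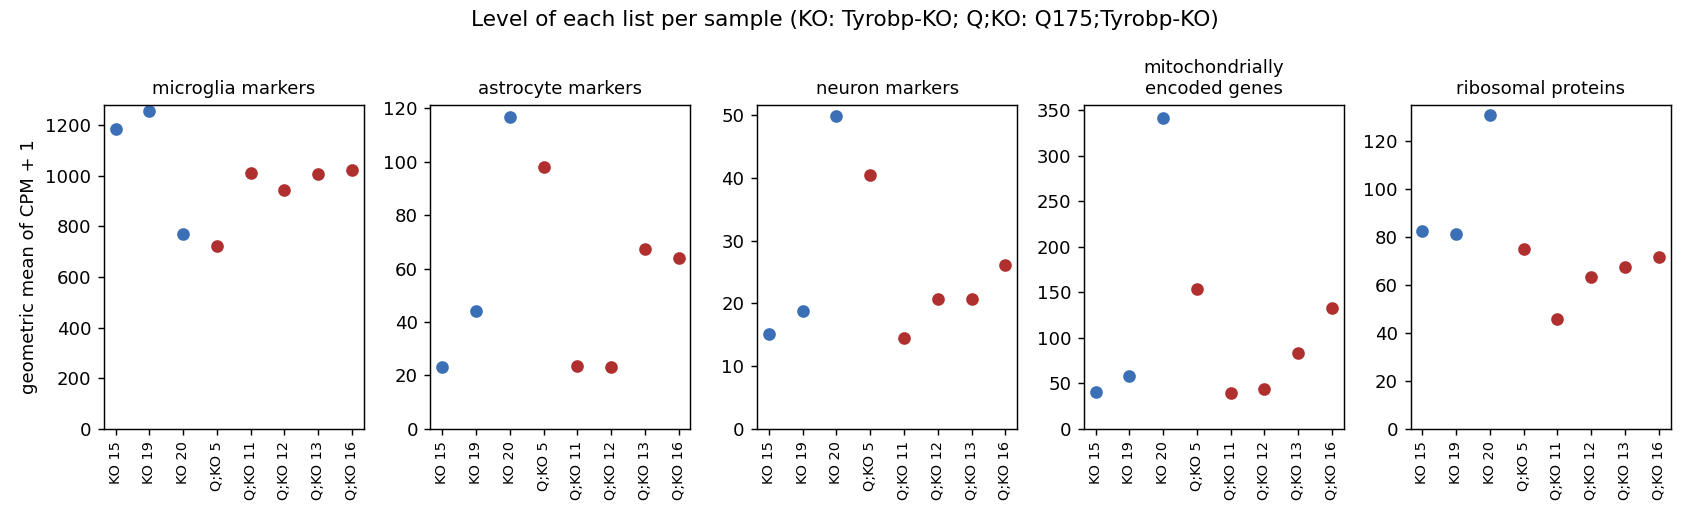
Level of 5 gene lists (geometric mean of CPM + 1, linear axes from 0) in the 3 Tyrobp-KO samples (KO, blue) and the 5 Q175;Tyrobp-KO samples (Q;KO, red). Tyrobp-KO 20 has the highest astrocyte (117), neuron (49.9), mitochondrial (341) and ribosomal protein (131) levels of the 8 samples, and the ribosomal protein level of all 3 Tyrobp-KO samples lies above that of all 5 Q175;Tyrobp-KO samples.

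No gene passed the test with edgeR in this comparison. The smallest p-values among lower genes included *Lyz2*, *Ear2*, *Ctsl* and both genes of histone H3.3, and those among higher genes *Tmc3*, *Tln2* and 4 gamma protocadherins. Of 17723 genes tested with edgeR's quasi-likelihood test (those reaching 1 CPM in 1 or more of the 8 samples), 0 passed a Benjamini-Hochberg FDR of 0.1, and the smallest adjusted p was 0.291. At an unadjusted p under 0.05 there were 2343 genes (13.2% of those tested), split into 883 with higher (4.98%) and 1460 with lower levels (8.24%) where the Q175 allele was present. Without Tyrobp-KO 20 this balance turned to 1540 higher and 1256 lower, and in 1 fit over all 4 genotypes it was 584 higher and 370 lower. DESeq2, the tool the study names, called 680 genes at the same FDR (3.84%), 270 higher (1.53%) and 410 lower (2.32%). With total counts as the scaling, the genes at an unadjusted p under 0.05 were 823 higher and 570 lower with edgeR. Levels of the groups did not overlap for 1602 genes (9.04%), 497 higher (2.8%) and 1105 lower (6.23%). The median log2 fold change over all genes tested was -0.01.

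*Lyz2*, the lysozyme of macrophages and microglia, had the smallest p-value with edgeR, and *Tmc3* with DESeq2. It was at 222, 203 and 213 CPM in Tyrobp-KO samples 15, 19 and 20, and at 116, 133, 115, 127 and 104 CPM in Q175;Tyrobp-KO samples 5, 11, 12, 13 and 16. All 5 samples with the Q175 allele lay below all 3 without it, with means of 119 ± 11.4 (SD, n = 5) and 213 ± 9.87 (SD, n = 3) CPM. The log2 fold change was -0.84 ± 0.12 (SE), with an adjusted p of 0.291 with edgeR and 3.67e-07 with DESeq2. *Lyz2* (chromosome 10, 117277331 to 117282321) was also variable where *Tyrobp* is present, at 211 to 400 CPM in WT and 133 to 350 CPM in Q175 samples, which overlap. In that comparison its log2 fold change was -0.27 ± 0.27 (SE).

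*Ear2*, an eosinophil-associated ribonuclease of myeloid cells, had the most negative fold change of the 15 lower genes, and it reached the 1 CPM filter only in the Tyrobp-KO samples, which favours a lower call. Its levels were 4.05, 2.53 and 2.91 CPM in the Tyrobp-KO samples and 0.91, 0.915, 0.724, 0.704 and 0.944 CPM in the Q175;Tyrobp-KO samples. The log2 fold change was -1.91 ± 0.28 (SE), with an adjusted p of 0.291 with edgeR and 1.83e-05 with DESeq2. Here it was the Tyrobp-KO group that stood out, since WT samples had 0.373 to 2.43 CPM and Q175 samples 0.46 to 1.17 CPM.

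*Ctsl*, the lysosomal protease cathepsin L, was at 442, 421 and 508 CPM in Tyrobp-KO samples and at 247, 336, 311, 280 and 286 CPM in Q175;Tyrobp-KO samples. *C3ar1*, the receptor of the complement fragment C3a, was at 316, 291 and 327 CPM against 158, 237, 181, 214 and 199 CPM. Neither gene overlapped between the groups, and the log2 fold changes were -0.65 ± 0.13 and -0.66 ± 0.13 (SE). Adjusted p with DESeq2 was 0.0015 for *Ctsl* and 0.00596 for *C3ar1*, and 0.291 for both with edgeR. *Fcer1g*, which like TYROBP is an adaptor with an activation motif, was at 287, 290 and 375 CPM in Tyrobp-KO samples and at 183 to 228 CPM in Q175;Tyrobp-KO samples (log2 fold change -0.64 ± 0.14, SE). Other lower genes of myeloid or lysosomal function were *Ms4a6d*, a membrane protein of the MS4A family (log2 fold change -0.64), and *Atp6v0b*, a subunit of the proton pump that acidifies lysosomes (-0.50).

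The remaining lower genes of the 15 with the smallest p-values are not particular to myeloid cells. *H3f3a* and *H3f3b*, which both encode the replication-independent histone H3.3, had log2 fold changes of -0.57 ± 0.11 and -0.59 ± 0.11 (SE). *H3f3b* was at 271, 260 and 283 CPM in Tyrobp-KO and at 163 to 191 CPM in Q175;Tyrobp-KO samples. *Hnrnpa1*, an RNA-binding protein of splicing, was at 263, 267 and 306 CPM against 161 to 190 CPM, a log2 fold change of -0.65 ± 0.12 (SE). The membrane proteins *Tmem147*, *Tmem50a* and *Tmem59* had log2 fold changes of -0.68, -0.50 and -0.57. The sphingolipid synthesis regulator *Ormdl2* was at -0.71, the calcium- and integrin-binding protein *Cib1* at -0.58, *Btf3l4* at -0.61 and *1810022K09Rik* at -0.70. *Ormdl2*, *H3f3a*, *1810022K09Rik*, *Atp6v0b*, *Tmem59* and *Ctsl* overlap annotated genes on the other strand. DESeq2 called all 15 lower genes.

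**Figure D2:**
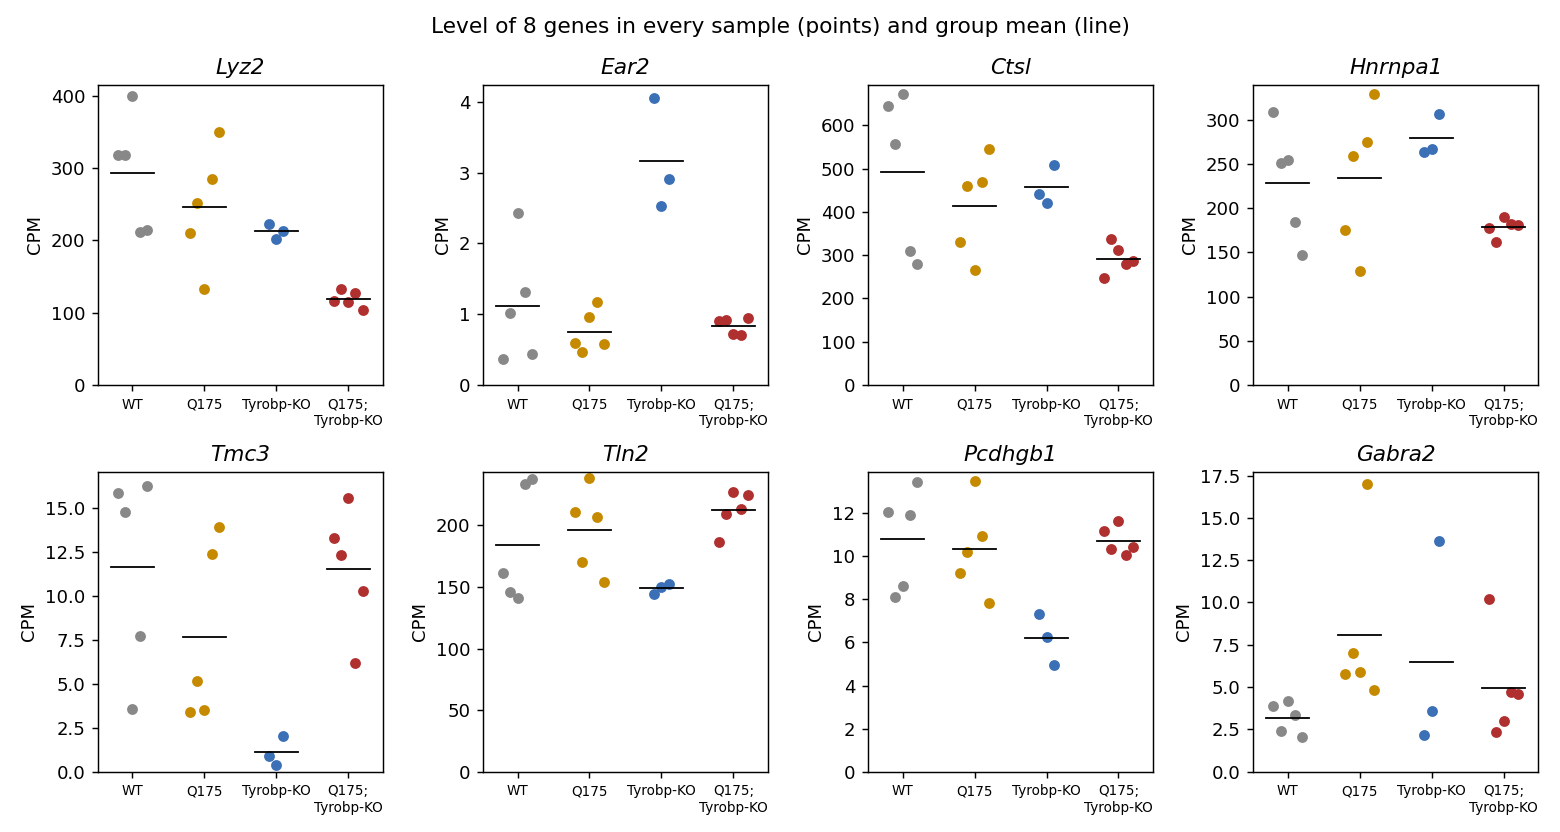
Level in CPM (linear axes from 0) of 8 genes in every sample of the 4 genotypes; points are samples and the line is the group mean. *Lyz2*, *Ear2*, *Ctsl* and *Hnrnpa1* are lower, and *Tmc3*, *Tln2* and *Pcdhgb1* higher, in all 5 Q175;Tyrobp-KO samples than in all 3 Tyrobp-KO samples, while WT and Q175 samples overlap; for *Gabra2* it is Tyrobp-KO 20 that sets its group's mean.

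Among the 15 higher genes with the smallest p-values, *Tmc3*, a member of the transmembrane channel-like family, had the largest fold change. Its level was 0.908, 0.374 and 2.05 CPM in Tyrobp-KO samples 15, 19 and 20, and 13.3, 12.3, 15.5, 6.16 and 10.3 CPM in Q175;Tyrobp-KO samples 5, 11, 12, 13 and 16. The log2 fold change was 3.39 ± 0.56 (SE), with an adjusted p of 0.291 with edgeR and 1.85e-07 with DESeq2. Mice with *Tyrobp* had 3.59 to 16.3 CPM (WT) and 3.4 to 13.9 CPM (Q175), so that the 3 Tyrobp-KO samples were the lowest of the 18. *Tmc3* lies on chromosome 7 (83584927 to 83625614), the chromosome of *Tyrobp*, and overlaps *Gm16638* on the other strand.

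The other 14 higher genes moved less, with log2 fold changes between 0.48 (*Sap130*) and 1.07 (*1700020D05Rik*). *Tln2*, a talin that links integrins to the actin skeleton, was at 144, 150 and 153 CPM in Tyrobp-KO and at 186, 209, 227, 213 and 225 CPM in Q175;Tyrobp-KO samples, a log2 fold change of 0.51 ± 0.10 (SE). Actin and adhesion were also the field of *Ssh1*, a phosphatase that activates cofilin (0.51), and of *Dnmbp*, an exchange factor for the GTPase CDC42 (0.53). *Clec16a*, a regulator of autophagy, was at 0.49, and *Vps13d*, a lipid transfer protein, at 0.55. *Fryl* was at 0.62, *Tango6* at 0.82, the matrix protein *Smoc1* at 0.92 and *Sap130*, a subunit of the SIN3A corepressor, at 0.48. DESeq2 called all 15 higher genes.

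The last 4 of the 15 were gamma protocadherins, cell-surface adhesion proteins made from 1 cluster on chromosome 18 in which variable first exons share the same constant exons, so reads in the constant exons cannot be assigned to a member. *Pcdhgb1* was at 7.32, 6.27 and 4.96 CPM in Tyrobp-KO and at 11.2, 10.3, 11.6, 10 and 10.4 CPM in Q175;Tyrobp-KO samples, a log2 fold change of 0.80 ± 0.17 (SE). *Pcdhga3* (0.79), *Pcdhga9* (0.66) and *Pcdhga2* (0.63) were higher by similar amounts. Of the 21 members tested, 15 were higher at an unadjusted p under 0.05 and 0 lower, against 4.98% of all genes that were higher, and their median log2 fold change was 0.52. Without Tyrobp-KO 20 it was 17 of 21, with a median of 0.66. This list was put together after the values were seen, and its members share their constant exons. In Q175 against WT the median over the same 21 genes was 0.03. The level of this list (geometric mean of CPM + 1) was 11.4 to 12.9 in Tyrobp-KO and 15.7 to 18.1 in Q175;Tyrobp-KO samples. Mice with *Tyrobp* had 14.4 to 20.5 (WT) and 13.3 to 21.7 (Q175), so that the Tyrobp-KO samples were the lowest.

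**Figure D3:**
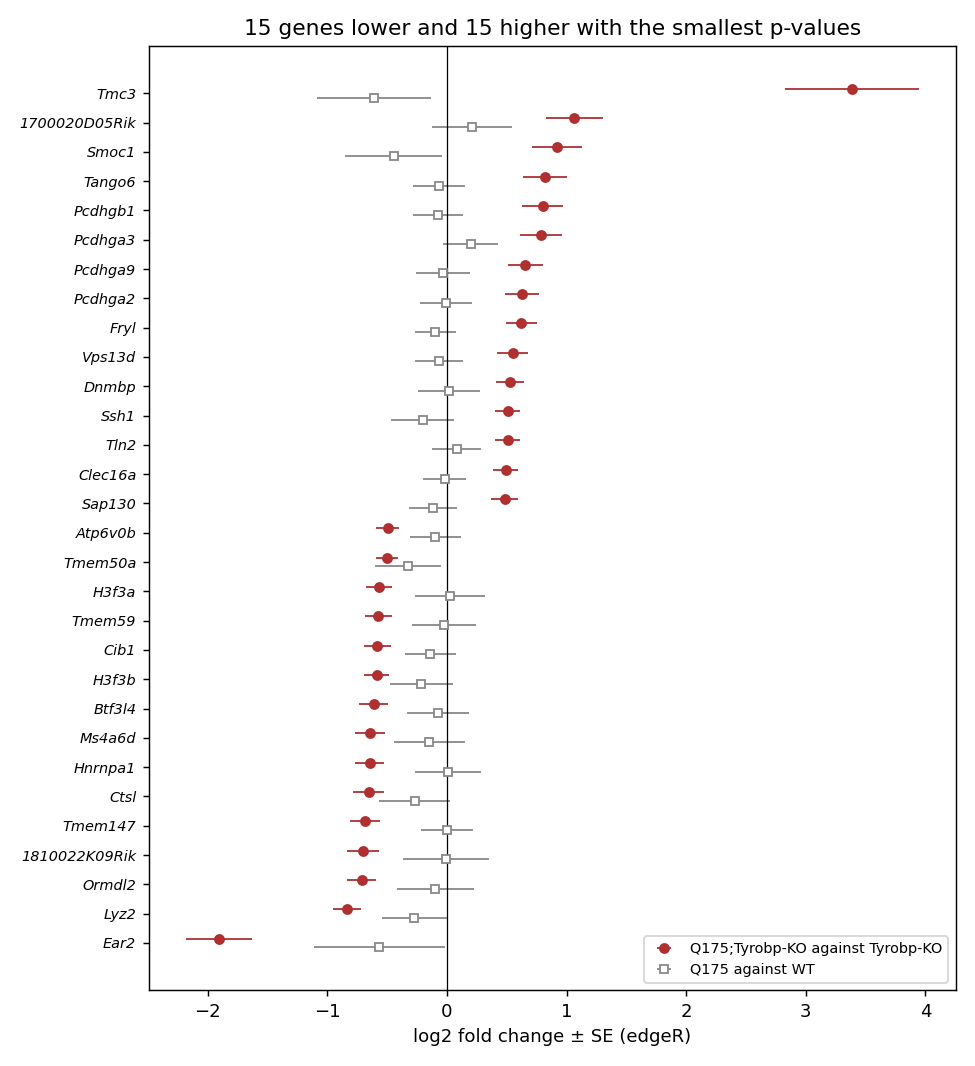
Log2 fold change with its SE (edgeR) of the 15 lower and 15 higher protein-coding genes with the smallest p-values, in Q175;Tyrobp-KO against Tyrobp-KO (filled red circles) and in Q175 against WT (open grey squares). The first lie between -1.91 (*Ear2*) and 3.39 (*Tmc3*), because they were chosen there, and the second lie between -0.61 (*Tmc3*) and 0.21 (*1700020D05Rik*).

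The levels of the WT samples, which no test of this comparison uses, were set beside those of both groups. The genes were chosen for a difference between these groups, and the mean of the smaller Tyrobp-KO group scatters more. The counts are therefore a description and do not decide which group departs. For 9 of the 15 higher genes the Tyrobp-KO mean lay outside the range of the 5 WT samples, and the Q175;Tyrobp-KO mean for 0. Among the 270 genes that DESeq2 called higher, the Tyrobp-KO mean was outside the WT range for 117 (43.3%) and the Q175;Tyrobp-KO mean for 22 (8.15%), against 23% and 12.1% of all genes tested. For 338 of the 410 lower calls (82.4%) the WT samples alone spanned both group means, against 51.9% of the higher calls and 72.5% of all genes tested. Among the genes at an unadjusted p under 0.05 this held for 74.3% of the lower and 59.7% of the higher ones. The Tyrobp-KO mean was outside the WT range for 14.4% of the lower calls. *Ctsl*, for example, was at 644, 557 and 672 CPM in WT samples 1, 2 and 6 and at 310 and 279 CPM in WT samples 7 and 8, a range within one genotype that spans both group means compared here.

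A second property moved with the groups. Short transcripts were lower and long ones higher in Q175;Tyrobp-KO samples. Over 5 equal groups of the protein-coding genes tested, ordered by exonic length, the median log2 fold change went from -0.25 in the shortest (median 1848 bases) over -0.09, -0.01 and 0.06 to 0.11 in the longest (median 10129 bases). In the shortest group 18.2% of genes were lower at an unadjusted p under 0.05 and 0.896% higher, and in the longest 4.51% were lower and 10.1% higher. Without Tyrobp-KO 20 the medians ran from -0.17 to 0.17, and in Q175 against WT from 0.02 to -0.02. The part that length, or RNA quality with it, has in single results was not tested. With a smooth trend on length over all genes subtracted, a setting chosen after seeing the data, the ribosomal protein median was -0.64 in place of -0.71. Such a trend holds only the average change with length, so these values do not decide that part.

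**Figure D4:**
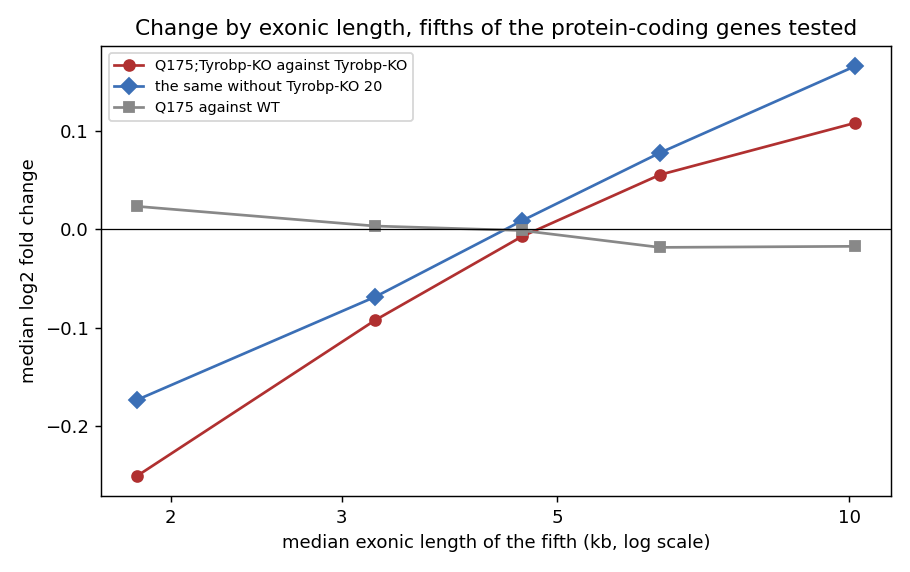
Median log2 fold change in 5 equal groups of protein-coding genes by exonic length (x axis in kb, log scale). It climbs from -0.25 to 0.11 in Q175;Tyrobp-KO against Tyrobp-KO and from -0.17 to 0.17 without Tyrobp-KO 20, and is flat in Q175 against WT (0.02 to -0.02).

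Ribosomal protein genes, which were made into a list after the values were seen, had mostly lower levels. Of 81 tested, 49 were lower at an unadjusted p under 0.05 and 0 higher, against 8.24% of all genes that were lower, 47 were lower without overlap between the groups, against 6.23%, and the median log2 fold change was -0.71. *Rps4x* was at 330, 296 and 505 CPM in Tyrobp-KO and at 221, 240, 225, 226 and 211 CPM in Q175;Tyrobp-KO samples, a log2 fold change of -0.76 ± 0.19 (SE), and -0.44 without Tyrobp-KO 20. *Rps9* was at 186, 184 and 223 CPM against 117 to 145 CPM (-0.54 ± 0.14, SE). Together these genes took 1.04% to 1.33% of all counts in Tyrobp-KO samples and 0.589% to 0.908% in Q175;Tyrobp-KO samples, which do not overlap, but 0.464% to 1.15% in WT samples. One library carried much of the size: without Tyrobp-KO 20 the median was -0.32 and 11 of the 81 were lower at an unadjusted p under 0.05, against 7.15% of all genes in that fit. With Q175;Tyrobp-KO 5 left out as well, a setting chosen after seeing the data, the median was -0.41 and 33 of the 81 were lower. Of all 17367 genes in that fit, 1597 were lower. In Q175 against WT the median was 0.13.

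Transcripts of ribosomal proteins typically begin in a run of pyrimidines, the TOP sequence, through which their translation and stability are controlled as a group. The starts of the 6 lower ones with the smallest p-values that the promoter table holds are shown for this reason, from 10 bases before the start annotated by RefSeq (GRCm38.p6) to 15 bases from it on, with runs of at least 8 pyrimidines (C or T) in capitals.
Rps4x, chrX:102189377-102189401, minus strand: gctgggcggagcaacccaggctcca
Rps9, chr7:3704031-3704055, plus strand: cttgTCTCTCTTTgtctcgggcctg
Rplp2, chr7:141447641-141447665, plus strand: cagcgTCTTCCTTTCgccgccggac
Rps24, chr14:24490668-24490692, plus strand: gctggggTCCTTCCTTgcgcgttga
Rps3a1, chr3:86142654-86142678, minus strand: gccggaagggcgaaagagcaagggt
Rps15a, chr7:118116133-118116157, minus strand: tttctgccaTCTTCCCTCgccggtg
Such a run was found on the coding strand of this window in 17 of 39 lower ribosomal protein genes of the table (43.6%), in 6 of the 22 others (27.3%) and in 11% of all genes of the table. A gene was counted if any of its annotated starts had a run. Of the 81 tested, 61 have an entry. A match is a description of the letters only.

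Other lists of general cell functions are given against the same 8.24%. Of 14 proteasome subunits, 7 were lower at an unadjusted p under 0.05 and 0 higher (median log2 fold change -0.38), with *Psmb6* at 52.4, 50 and 59.4 CPM in Tyrobp-KO and 36.8 to 40 CPM in Q175;Tyrobp-KO samples. Without Tyrobp-KO 20 it was 3 of 14 with a median of -0.24. Of 88 nuclear-encoded respiratory chain genes, 24 were lower and 1 higher (median -0.50), led by the ATP synthase subunits *Atp5f1* (-0.59 ± 0.15, SE) and *Atp5g1* (-0.61 ± 0.20, SE), at -0.39 and -0.40 without Tyrobp-KO 20. That group rested on 1 library, with 2 lower and a median of -0.11 without Tyrobp-KO 20. Of 16 vacuolar ATPase subunits, 7 were lower and 1 higher (median -0.27), *Atp6v0b* and *Atp6v1c1* first, and without that sample 5 were lower. Of 20 hnRNP genes, 7 were lower and 1 higher (median -0.13), and 9 were lower without that sample, with *Hnrnph1* at 477, 477 and 502 CPM against 300 to 375 CPM. Glycolysis (1 lower of 13, *Ldha*), glutathione and detoxification genes (1 of 16, *Gpx1*) and heat shock chaperones (2 of 12, *Hsp90aa1* first) had medians of -0.18, -0.25 and -0.20, and of -0.10, 0.00 and -0.36 without that sample.

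The lists of microglial genes are read against the 8.24% of all genes that were lower and the 4.98% that were higher. Of the 20 microglia markers, 8 were lower at an unadjusted p under 0.05 and 0 higher, with a median log2 fold change of -0.27, and 9 were lower without Tyrobp-KO 20. The first were *Gpr34*, a receptor for lysophosphatidylserine (-0.65 ± 0.19, SE, and -0.43 without that sample), and *P2ry13*, a receptor for ADP (-0.47 ± 0.15, SE). *P2ry13* was at 1338, 1226 and 1312 CPM in Tyrobp-KO and at 739 to 1139 CPM in Q175;Tyrobp-KO samples. Homeostatic genes, *Gpr34* and *P2ry13* among them, had 4 lower of 20 and a median of -0.07 (-0.30 without Tyrobp-KO 20). Of the 16 genes of TYROBP signalling tested, 5 were lower (*Tyrobp* and *Fcer1g* first) and the median was 0.03 (-0.18 without that sample). *Trem2*, the best-known receptor partner of TYROBP, was at 321, 350 and 231 CPM against 187 to 254 CPM, which overlap (log2 fold change -0.42 ± 0.16, SE).

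The first stage of the DAM programme, known to arise without TREM2, had 3 of 9 genes lower at an unadjusted p under 0.05 and all 9 fold changes below 0 (median -0.61). *Tyrobp*, deleted in both groups, is a member of this list and among the 3 lower genes. Its own log2 fold change of -0.61 is the list's median. Without Tyrobp-KO 20, 6 of 9 were lower. The second stage, which depends on TREM2, had 5 of 17 lower and 2 higher (median -0.34). *Cd9*, a tetraspanin of this stage, was at 565, 491 and 655 CPM in Tyrobp-KO and at 290, 472, 381, 359 and 371 CPM in Q175;Tyrobp-KO samples. Its defining effectors were low in both groups. *Spp1* (osteopontin) was at 0.463 to 0.666 CPM in Tyrobp-KO and at 0.215 to 3.76 CPM in Q175;Tyrobp-KO samples, against 16.8 to 83.8 CPM in WT. *Clec7a* (dectin-1) was at 11.9 to 15.7 CPM and 8.84 to 27.5 CPM, with a log2 fold change of 0.05 ± 0.37 (SE), and *Igf1* at 0.328 to 2.25 and 0.294 to 0.896 CPM.

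Lysosome and phagocytosis genes had 5 lower of 19 (median -0.21), with *Ctsl* and the membrane protein *Lamp2* (-0.56 ± 0.15, SE) first, and 12 of 19 without Tyrobp-KO 20 (median -0.35). Of 12 complement genes, 4 were lower and 0 higher (median -0.43), and 6 without that sample. *C3ar1*, described above, had the smallest p-value of them. The 3 chains of C1q, the starter of the classical pathway, were lower by 0.47 (*C1qa*), 0.39 (*C1qb*) and 0.45 (*C1qc*) on the log2 scale. Their groups overlap: *C1qa* was at 1606, 1722 and 1108 CPM in Tyrobp-KO and at 882, 994, 1084, 1158 and 1194 CPM in Q175;Tyrobp-KO samples. Antigen presentation genes had 3 lower of 11 (median -0.71) and 7 without that sample. *B2m*, the light chain of class I molecules, was at 707 to 1227 CPM against 462 to 766 CPM. *H2-Aa*, a class II chain, was at 31.6, 8.52 and 5.1 CPM against 1.5 to 6.75 CPM, with a log2 fold change of -1.50 ± 0.62 (SE) and Tyrobp-KO 15 the highest of the 8 samples. Without Tyrobp-KO 15 it was -0.35.

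Of 18 chemokines and pro-inflammatory genes, 4 were lower and 0 higher (median -0.44). *Nfkbia*, the inhibitor and target of NF-kB, was at 52.9, 51.9 and 42.9 CPM in Tyrobp-KO and 29 to 37.5 CPM in Q175;Tyrobp-KO samples (-0.52 ± 0.12, SE), and *Tlr4*, the receptor for lipopolysaccharide, at 161, 162 and 180 CPM against 89 to 160 CPM (-0.52 ± 0.16, SE). The chemokine genes *Ccl3* and *Ccl4* had log2 fold changes of -0.63 ± 0.29 and -0.68 ± 0.49 (SE), and their groups overlap. Interferon response genes had 10 fold changes above and 8 below 0, with 1 lower of 18 (*Ifitm3*) and a median of 0.04. Of 10 genes that the study names as dependent on *Tyrobp*, 3 were lower and 0 higher (median -0.46). Without Tyrobp-KO 15 the medians of 3 of these lists were -0.15 for complement, -0.10 for antigen presentation and -0.17 for chemokines and pro-inflammatory genes.

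**Figure D5:**
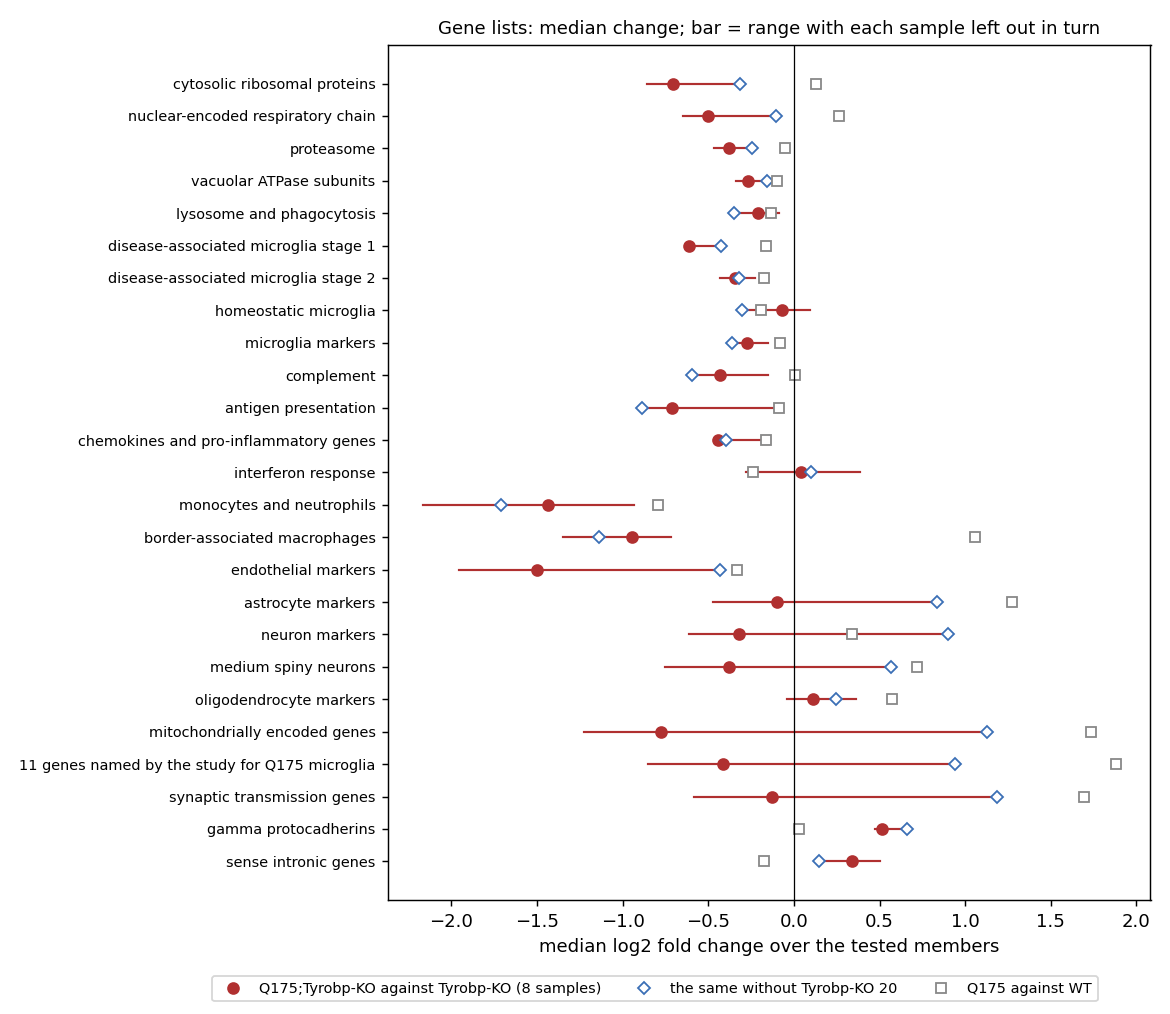
Median log2 fold change over the tested members of 25 gene lists in Q175;Tyrobp-KO against Tyrobp-KO (red circles; the bar is the range when each of the 8 samples is left out in turn), in the same comparison without Tyrobp-KO 20 (blue diamonds) and in Q175 against WT (grey squares). Microglia, complement, lysosome and both DAM lists stay below 0 without Tyrobp-KO 20, while astrocyte (-0.10 to 0.83), synaptic (-0.13 to 1.18) and mitochondrially encoded genes (-0.77 to 1.13) turn from below to above 0.

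Genes that were higher with Q175 where *Tyrobp* is present had mostly negative fold changes here. DESeq2 called 234 genes in Q175 against WT (1.28%), 231 of them higher (1.27%) and 3 lower (0.0165%), and 228 of the 234 were tested in the absence of *Tyrobp*. Of these 228, 1 was higher and 1 lower at an unadjusted p under 0.05, 0 were called by DESeq2, and 160 had a fold change below 0. Their median log2 fold change was -0.30, against 1.68 in Q175 against WT. The 11 genes that the study names for Q175 microglia were chosen on those samples, which gives no independent support to their direction there. They had a median of 1.88 in Q175 against WT and of -0.41 here, with 0 of 11 at an unadjusted p under 0.05 here.

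The values in the absence of *Tyrobp* depended on 1 sample. *Gstm5*, a glutathione transferase, was at 20.8, 26.6 and 178 CPM in Tyrobp-KO samples 15, 19 and 20 and at 68.3, 15, 13.9, 48.7 and 42.1 CPM in Q175;Tyrobp-KO samples 5, 11, 12, 13 and 16. *Gabra2*, a GABA-A receptor subunit, was at 2.18, 3.6 and 13.6 CPM against 10.2, 2.33, 3, 4.7 and 4.59 CPM. Tyrobp-KO 20 had the highest level of both genes and Q175;Tyrobp-KO 5 the next. Without Tyrobp-KO 20 the median of the 228 genes was 0.93, that of the 11 named genes 0.94 and that of 10 synaptic transmission genes 1.18 in place of -0.13. Of these, 0 of the 11 and 1 of the 10 then had an unadjusted p under 0.05. *Gabrb1* and *Trpc6* turned in the same way, from -0.40 to 0.94 and from -1.29 to 1.43. In that 11-gene list the level (geometric mean of CPM + 1) was 4.14 to 22.6 in Tyrobp-KO and 4.1 to 14.3 in Q175;Tyrobp-KO samples.

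Markers of other cell types moved with the same samples. Over 15 astrocyte markers, 0 were at an unadjusted p under 0.05 here and the median was -0.10, but 0.83 without Tyrobp-KO 20. In Q175 against WT, where 6.24% of all genes had an unadjusted p under 0.05 and 5.47% were higher, 14 of the 15 were higher with a median of 1.27. The 10 neuron markers had 1 lower and a median of -0.32 (0.90 without that sample), 12 medium spiny neuron markers 0 and -0.38 (0.57), 10 oligodendrocyte markers 0 and 0.11 (0.24), and 7 oligodendrocyte precursor markers 0 and 0.29 (1.25). The 6 markers of D1 and the 5 of D2 medium spiny neurons had 0 each, with medians of -0.07 and -0.72 (0.63 and -0.08 without that sample). For the 12 mitochondrially encoded genes tested the count was 0 and the median -0.77 (1.13 without that sample), against 12 of 12 higher and 1.73 in Q175 against WT. Q175 14 had 7.26% of its counts on mitochondrially encoded genes, against 1.18% to 2.36% in the other Q175 samples. Its astrocyte level was 142 and its mitochondrial level 315 (geometric mean of CPM + 1). The other Q175 samples had 43.5 to 65.4 and 64.4 to 122, and WT samples 21.7 to 35.3 and 37.8 to 61.9. Q175 against WT without Q175 14 was not tested. The part of these other cell types in the results above was not tested.

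Markers of vessel and blood cells had low levels and were mostly lower. Of 9 endothelial markers, 6 were lower at an unadjusted p under 0.05 (median -1.50), with *Ly6c1* at 0.424, 3.13 and 7.87 CPM in Tyrobp-KO and 0.275 to 0.998 CPM in Q175;Tyrobp-KO samples. *Itm2a* was at 0.908, 2.25 and 6.82 CPM against 0.412 to 1.27 CPM. Without Tyrobp-KO 20 the endothelial count was 0 and the median -0.43. Mural markers had 1 lower of 5 (median -0.64), and 1 higher and 0 lower without that sample (median -0.07). Border-associated macrophages, which CD11b beads also retain, had 3 lower of 5 (median -0.95). Both members named next, like *Ly6c1*, reached the 1 CPM filter only in Tyrobp-KO samples, which favours a lower call. *Cbr2* was at 1.09, 1.36 and 1.79 CPM against 0.235 to 0.595 CPM, and the scavenger receptor *Cd163* at 0.86 to 1.59 CPM against 0.0915 to 0.646 CPM. Monocyte and neutrophil markers had 5 lower of 8 (median -1.43, and -1.71 without Tyrobp-KO 20). *S100a8* and *S100a9*, which form calprotectin in neutrophils, were highest in Tyrobp-KO 19 (46.6 and 48.6 CPM) and at 3.2 to 18.3 and 3.71 to 18.5 CPM in Q175;Tyrobp-KO samples. Their log2 fold changes were -1.71 and -1.62, and -0.93 and -0.81 without Tyrobp-KO 19. Of the T and NK cell markers, 2 of 6 reached the filter and 0 had an unadjusted p under 0.05.

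Choroid plexus genes were higher in both comparisons. Of 6 ependymal and choroid plexus markers, 3 were higher here (median log2 fold change 3.0) and 6 of 6 in Q175 against WT (median 4.04). In Q175 samples 3 and 4 the level of these markers (geometric mean of CPM + 1) was 11.1 and 11.7. In the other Q175 samples it was 1.53 to 2.33, within the 1.37 to 2.58 of the WT samples. *Ttr* (transthyretin, the secreted product of choroid plexus) was at 6.59, 0.328 and 5.36 CPM in Tyrobp-KO and at 31, 416, 35.5, 27.2 and 19.3 CPM in Q175;Tyrobp-KO samples, highest in sample 11. It ran from 0.54 to 85 CPM in WT and from 2.3 to 1275 CPM in Q175 samples. *Kcne2*, a potassium channel subunit of the same epithelium, had no count in the 3 Tyrobp-KO samples and 0 to 1.6 CPM in Q175;Tyrobp-KO samples. It thus reached the 1 CPM filter only in Q175;Tyrobp-KO samples, which favours a higher call. Without Tyrobp-KO 20, 1 of the 6 was higher at an unadjusted p under 0.05 and the median was 3.19, and without Q175;Tyrobp-KO 11 the median was 0.57. Of the 17376 genes tested in both comparisons, which share no sample, 23 had an unadjusted p under 0.05 in both. Of all genes tested, 13.2% had such a p-value here and 6.24% in Q175 against WT. The overlap was smaller than these shares would give if the comparisons were unrelated. Such a p-value in Q175 against WT was found for 11 of 878 genes higher here and 12 of 1440 lower here. Of all 17376 genes it was found for 1059. The reason was not tested. The direction was the same for 14 of the 23, *Ttr*, *Kcne2* and *Folr1* of the marker list among them, and opposite for 9. Across 17376 genes the fold changes of both comparisons had a Pearson correlation of -0.09, as a description over genes that are not independent.

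Whether the effect of Q175 differs with and without *Tyrobp* was tested as an interaction over all 18 samples. WT samples were mostly male and Q175 samples mostly female, so where *Tyrobp* is present sex and the Q175 allele are hard to tell apart. With edgeR, 0 of 18613 genes passed an FDR of 0.1 (smallest adjusted p 0.716), and 1118 (6.01%) had an unadjusted p under 0.05, 2.99% with a positive and 3.02% with a negative interaction. DESeq2 called 2 genes (0.0107%), 1 of each sign (0.00537% each). *Tmc3* had the smallest p-value with edgeR, with an interaction of 4.04 ± 0.79 (SE) on the log2 scale and an adjusted p of 0.00143 with DESeq2. Of the 234 genes called where *Tyrobp* is present, 136 had an unadjusted p under 0.05 in the interaction, which holds the contrast they were chosen on and so gives no independent support. So did 9 of the 11 named genes, all with a negative interaction (median -2.45), 9 of 12 mitochondrially encoded genes and 6 of 15 astrocyte markers, and 7 of 21 gamma protocadherins, all positive (median 0.55). The 11 genes and the protocadherins were also chosen on a contrast that is part of the interaction. For microglia, complement and lysosome lists and for the 81 ribosomal proteins the count was 0. Leaving out Tyrobp-KO 20 brought all genes at an unadjusted p under 0.05 from 1118 to 560, and leaving out Q175 14 to 575. With sex as a term there were 289.

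Genes near *Htt* and *Tyrobp* were counted because both loci are engineered. Within 15 Mb of *Htt*, 36 of 249 genes tested (18 higher and 18 lower, 14.5%) had an unadjusted p under 0.05, against 13.2% of all genes, and 0 of them had this in Q175 against WT in the same direction. Within 15 Mb of *Tyrobp*, where both groups carry the same deletion, the count was 18 higher and 19 lower of 392 (9.44%).

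The last lists are tied to chromatin, huntingtin and other functions. Of 13 genes of PRC2 and the H3K27 demethylases, 2 were higher and 3 lower at an unadjusted p under 0.05 (38.5%, against 13.2% of all genes), with a median of 0.05 and 2 higher and 0 lower without Tyrobp-KO 20. The methyltransferase *Ezh1* was at 0.41 ± 0.13 (SE) and *Jarid2* at 0.30 ± 0.10 (SE). Of 11 genes of CAG repeat instability and mismatch repair, 1 was higher, the nuclease *Fan1* (24.9, 22.9 and 24 CPM in Tyrobp-KO and 26.4 to 32.2 CPM in Q175;Tyrobp-KO samples), and 10 of the 11 fold changes were above 0 (median 0.12), *Mlh3* being next. Of 9 genes of huntingtin and its partners tested, 1 was lower and 0 higher (median 0.20). Without Tyrobp-KO 20, 3 of the 9 were higher and 1 lower (median 0.50). The developmental transcription factors were mostly below the filter, with 2 of 14 tested and 1 higher. Cholesterol synthesis genes had 1 higher (*Lss*) and 1 lower (*Sqle*) of 16, and immediate early genes 0 of 15. Sense intronic transcripts had 22 higher and 1 lower of 201 (median 0.34), against 4.98% and 8.24% of all genes, and transcripts of the annotation class TEC, whose status is still open to experiment, 143 higher and 23 lower of 1201 (median 0.28). Without Tyrobp-KO 20 their medians were 0.15 and 0.09. In that fit 18 of 199 and 83 of 1197 were higher, against 8.76% of all genes, and 2 and 29 were lower, against 7.15%. With Q175;Tyrobp-KO 5 left out as well, a setting chosen after seeing the data, 28 of 197 and 157 of 1170 were higher. Of all 17367 genes in that fit, 1644 were higher. The excess of higher genes thus depended on which of these samples were kept.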

How the data were processed

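RNA sequencing counts of CD11b-enriched striatal microglia were analysed. The authors aligned reads with STAR to GRCm38 by their methods and counted them per gene with featureCounts, and the deposited values are counts, whole numbers with no normalization. All 55536 identifiers match GENCODE M21 for GRCm38, which gave symbols, positions and lengths. The labels name GRCh38 as a build. Labels state 2 striata for a sample, methods 1. 2 count columns have no sample in the labels and were not used.

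Samples were grouped by genotype. Genes reaching 1 CPM in 1 or more samples compared were tested with edgeR 4.0.16 (quasi-likelihood, TMM, FDR of 0.1, R 4.3.3), and with DESeq2 1.42.0 as an alternative. No p-value over a list was computed. Named genes are *Tyrobp*, *Htt*, the 15 higher and 15 lower protein-coding genes with the smallest p and a mean of at least 1 CPM in a group, the 2 with the smallest p of each list, and genes the study names; *Rplp2*, *Rps24*, *Rps3a1* and *Rps15a* were added after their values were seen. 1 gene that this rule names is not reported here. Members and lists were chosen with earlier results of these data known. The steps were tested on simulated data. No pair of samples was a copy. For the most alike, Q175;Tyrobp-KO 13 and 16, chi-square over degrees of freedom was 15.8 (17184 genes), where sampling noise gives 1. Samples come from separate mice. For genes of many counts, counting error is small at these totals beside the spread between mice. This does not hold for genes near or below 1 CPM, such as *Ear2*, where counts are few.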

Additional observations from a re-analysis of the deposited data

Results flagged for a closer look

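*Tmc3* differed between backgrounds by a test of the difference itself: its interaction was 4.01 on the log2 scale with DESeq2, with an adjusted p of 0.00143, and 4.04 with edgeR, which did not pass (adjusted p 0.716).

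Among 93 sets of 5 Q175;Tyrobp-KO values screened, 10 had a sample far from the others by Dixon's test at 95%. Chance gives this for about 1 set in 20. The sets are not independent, because lists and some of their member genes were both screened, so the 10 cannot be weighed against that rate. Sample 11 was high for *Ttr* (416 CPM), *Kcne2* (1.6 CPM) and the level of ependymal and choroid plexus markers (5.61). Sample 13 was high for *S100a8* (18.3 CPM) and the level of monocyte and neutrophil markers (8.27). Sample 5 was low for *Ssh1* (35.1 CPM), *C1qc* (995 CPM) and the level of microglia markers (722), and high for *Spp1* (3.76 CPM). Sample 16 was low for *H3f3a* (69.2 CPM).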

How the results depend on the processing

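For Q175 in the absence of *Tyrobp*, edgeR called 0 genes in all alternatives, each sample left out in turn included, and DESeq2 680. The 2343 genes at an unadjusted p under 0.05 became 1393 with total counts as scaling, 954 in 1 fit over 4 genotypes, 387 with females only, and 1596 to 2796 with each sample left out. For the interaction, DESeq2 called 2 genes, and the 1118 at an unadjusted p under 0.05 became 289 with sex as a term, 408 with the non-microglial score, and 560 to 1890 with each sample left out. Total counts raised the interaction's median over all genes by 0.11. The median of the 228 Q175 genes was -0.68 to 0.93 with each sample left out, above 0 without Tyrobp-KO 20, and 0.51 without Tyrobp-KO 20 and Q175;Tyrobp-KO 5, a setting chosen after seeing the data, like the length trend. No paired analysis was possible because no replicate number occurs in both groups. Of 82 named genes, 76 kept their sign in every alternative. *Htt* was reversed with females only (-0.10) and ran from -0.0916 to 0.20 with each sample left out, and *Clec7a* with sex (-0.16), females only (-0.70) and the score (-0.0603), from -0.24 to 0.20. Without both samples *Gabra2* was at 0.32, *Gabrb1* at 0.50, *Gstm5* at 0.33 and *Trpc6* at 0.98, and with each sample left out they ran from -0.88 to 0.83, -0.84 to 0.94, -1.46 to 0.72 and -1.86 to 1.43. The cause of these shifts was not tested. With 3 Tyrobp-KO samples, leaving 1 out leaves 2.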
